A study of Homo sapiens with 6 samples.

Results

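The empty-vector (EV) A375 cells are the control cells of a study of the phosphatase PRL3, and 3 of the 6 libraries of the series, EV libraries B1, B2 and B3, hold their nascent RNA as 4sU-seq reads. They were chosen by their sample titles, with earlier results of these data known. The other 3 libraries, from cells expressing PRL3, were not analysed here. A375 is an established human melanoma cell line with an activating mutation in the kinase gene BRAF. The cells had been stably transfected with the plasmid without the PRL3 insert and were kept in hygromycin at 100 µg/ml, and all 3 libraries came from cells given 4-thiouridine (4sU) at 500 µM for 20 min. Whether the EV line was 1 clone or a pool is not given in the sources used here, and nothing in the labels says that the libraries came from separate cultures, so the spread between them may be technical. PTP4A3, which encodes PRL3, had 132, 176 and 307 counts in B1, B2 and B3, a level of 2.84 ± 0.75 transcripts per 1000000 (TPM, SD, n = 3).

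Growing cells take up 4sU and build it into the RNA they are making, and the thiol group lets that RNA be biotinylated and pulled down on streptavidin. After a short pulse the recovered RNA is weighted toward synthesis, whereas a total RNA library is weighted toward what has built up. RNA polymerase II makes mRNAs, most long noncoding RNAs (lncRNAs) and most small nuclear and nucleolar RNAs, RNA polymerase III makes 7SL and 7SK RNA, and a separate polymerase reads the mitochondrial genome. Melanoma arises from melanocytes, pigment cells of neural crest origin, in which the transcription factors SOX10 and MITF switch on the enzymes of melanin synthesis. Melanoma lines range from pigmented cells to dedifferentiated ones that have lost the pigment genes and carry markers such as AXL.

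Gene counts ranged from 47158709 to 57952035 a library, with a median of 48016208, so 3 counts in a library, the limit set by a count of 0, corresponded to between 0.0518 and 0.0636 counts per 1000000 gene counts (CPM). Reads that matched no exon of a gene on its strand were 30.2%, 28.7% and 41.1% of the uniquely aligned reads in B1, B2 and B3, highest in B3. Reads that could belong to more than 1 gene were 4.46% to 5.01%, and reads with several alignments were 19.2% to 28.6% of all aligned reads. Intervals and limits here cover counting error only, since reads without molecular identifiers are not independent molecules. Total RNA was not analysed here, so RNA made in the pulse and older RNA carried through the pull-down cannot be told apart.

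Of the 58243 gene identifiers, 19438 had at least 10 counts in each of the 3 libraries and are termed detected below, and 25769 had no count in any. Among protein-coding genes, 13466 of 19708 (68.3%) were detected, and 3810 (19.3%) had at most 3 counts in every library and are termed off. The median level of a detected protein-coding gene was 11.9 TPM, on a scale that divides counts by the exon length of the gene. Protein-coding genes of the nucleus took 91.3%, 90.6% and 89.3% of the gene counts in B1, B2 and B3, or 90.4% ± 1.03 (SD, n = 3), apart from the replication-dependent histone genes. LncRNAs took 2.16% ± 0.29, with 3102 of 14262 annotated lncRNA genes detected. Mitochondrial mRNAs took 2.11%, 2.09% and 2.09%, the class with the smallest relative spread.

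**Figure D1:**
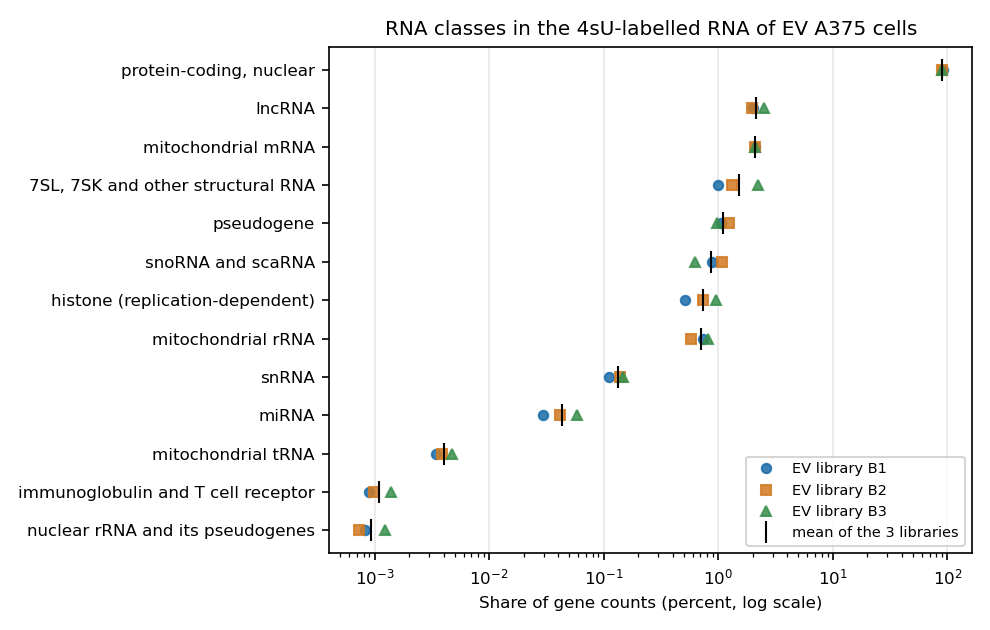
Share of gene counts (horizontal axis, percent, log scale) held by each RNA class in EV libraries B1, B2 and B3, with the mean as a bar. Nuclear protein-coding genes hold 89.3% to 91.3%, and 7SL and other structural RNA ranges from 0.997% in B1 to 2.22% in B3.

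The smaller classes differed more between libraries. Structural RNAs such as 7SL took 0.997%, 1.31% and 2.22% of gene counts in B1, B2 and B3, and histone genes 0.508%, 0.736% and 0.948%, so B3 was highest for both. Small nucleolar and Cajal body RNAs (snoRNAs and scaRNAs) went the other way in B3, with 0.889%, 1.09% and 0.627%. Pseudogenes took 1.09% ± 0.13, and many of these copies share sequence with highly labelled parent genes, so their counts are uncertain. The plot of class shares shows the classes in this order, with the libraries close together for mRNA and spread apart for the short RNAs.

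The labelled RNA was spread over many genes. The 100 most counted genes held 22.1% ± 0.62 (SD, n = 3) of gene counts, the 1000 most counted 52.1% ± 1.27, and the 5000 most counted 85.5% ± 0.80. In B1, B2 and B3, 905, 843 and 1001 nuclear protein-coding genes were enough to reach 50% of the counts of their class.

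GAPDH, a glycolytic enzyme gene on chromosome 12 (GRCh38, 6534512 to 6538374), led the protein-coding genes outside the mitochondrial genome. It had 11147, 10930 and 9901 TPM in B1, B2 and B3, or 10659 ± 666 TPM (SD, n = 3). Every library gave GAPDH more than any of them gave TMSB10, the next nuclear gene. TMSB10 encodes the actin-binding thymosin beta 10 and had 5458, 6678 and 5085 TPM. Ribosomal protein genes filled 12 of the 20 highest places, among them RPS12 at 5517 ± 934 TPM, RPS27 at 4732 ± 829 and RPS2 at 4699 ± 945. The remaining genes of the 20 were FTL, the light chain of the iron store ferritin, at 4223 ± 427 TPM, S100A6, a calcium-binding protein, at 3523 ± 614, H4C2, a histone H4 gene, at 2958 ± 763, LGALS1, the lectin galectin-1, at 2438 ± 304, TUBA1B, an alpha tubulin, at 2431 ± 161, and PFN1, the actin regulator profilin 1, at 2310 ± 232 TPM.

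The order below GAPDH was loose. In 17 of the 19 neighbouring pairs among the 20 genes the ranges over the 3 libraries overlapped, and the exceptions were GAPDH above TMSB10, and RPL41 above S100A6. RPL41, a very short ribosomal protein, had the smallest SD of the 20 relative to its mean on this scale, with 4185, 4290 and 4188 TPM. Of the 20 genes 17 were lowest in B3, and H4C2 alone was highest there, with 2108, 3184 and 3582 TPM. On this scale the abundance of RN7SL2, a 7SL RNA gene, enters every value, since it alone made 8.84%, 10.6% and 17.8% of the TPM of B1, B2 and B3. Levels of other genes in B3 are pulled down by that share, so a lower TPM in B3 is not read as less labelling, and statements below on which library was higher rest on counts or CPM. The choice of length also matters, since 12 of the 20 genes kept their place among the 20 when counts were divided by the length of the canonical transcript, with GAPDH again in front, and 7 did by CPM.

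**Figure D2:**
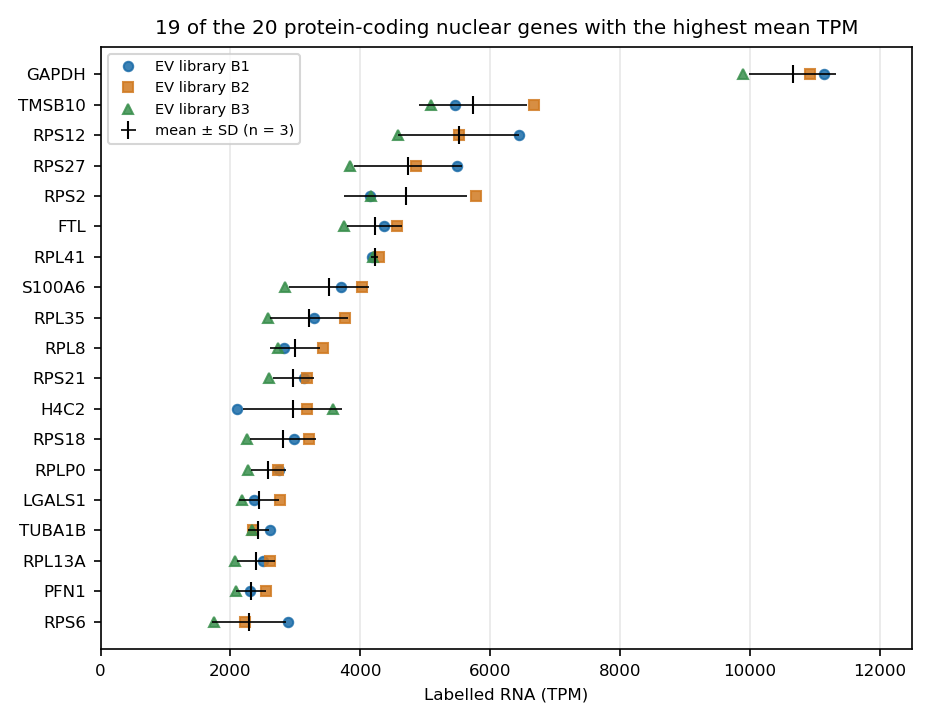
TPM (horizontal axis) of 19 of the 20 nuclear protein-coding genes with the highest mean, with a point per EV library and the mean ± SD (n = 3) in black. GAPDH stands apart between 9901 and 11147 TPM, and below it the ranges of neighbouring genes mostly overlap.

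The start sites of these genes were read from RefSeq because mRNAs for ribosomal proteins are known to begin with a terminal oligopyrimidine (TOP) tract, a C followed by pyrimidines, through which their translation is controlled. Of the 20 genes, 16 matched the promoter table (RefSeq, GRCh38.p14). The windows below run from 10 bases before the annotated start to 20 bases into the transcript, and capitals mark its opening 5 bases.
RPS12, chr6:132814559-132814588, plus strand: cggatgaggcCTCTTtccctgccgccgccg
RPS27, chr1:153990752-153990781, plus strand: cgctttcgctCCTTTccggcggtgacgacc
RPL41, chr12:56116623-56116652, plus strand: cttcgcctttCTCTCggccttagcgccatt
RPS21, chr20:62387093-62387122, plus strand: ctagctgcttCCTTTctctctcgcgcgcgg
RPS18, chr6:33272065-33272094, plus strand: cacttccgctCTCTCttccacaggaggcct
RPLP0, chr12:120201092-120201121, minus strand: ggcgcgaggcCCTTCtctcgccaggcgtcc
RPS6, chr9:19380217-19380246, minus strand: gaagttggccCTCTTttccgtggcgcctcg
GAPDH, chr12:6535254-6535283, plus strand: gtgcatccctGTCCGgatgctgcgcctgcg
TMSB10, chr2:84905646-84905675, plus strand: ccgctcttttGTTTCttgctgcagcaacgc
FTL, chr19:48965299-48965328, plus strand: acgtcccctcGCAGTtcggcggtcccgcgg
TUBA1B, chr12:49131376-49131405, minus strand: gccccgccctAGTGCgttacttacctcgac
PFN1, chr17:4948511-4948540, minus strand: gggctgctgcACAGCgagcggagccgcggt

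All 9 ribosomal protein genes among these 16 opened with C and 4 further pyrimidines, and 0 of the other 7 did. Over all 62 ribosomal protein genes with an entry, 46 (74.2%) did so at 1 or more annotated starts, compared with 5.14% of all 27305 genes in the table and 7.41% of 10915 detected protein-coding genes. Among the 100 nuclear protein-coding genes with the highest TPM, 83 had an entry and 41 of these (49.4%) had such a start. The capitals describe the annotated start and are no measure of where transcription began in these cells.

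Cytosolic ribosomal protein genes took 10.5% ± 0.81 (SD, n = 3) of gene counts, at a median of 900 TPM. Of these 86 of 87 were detected, compared with 68.3% of all protein-coding genes. Glycolysis genes took 2.42% ± 0.12, led by GAPDH, with ENO1 (enolase) at 2072 ± 129 TPM, PKM (pyruvate kinase) at 1210 ± 170, ALDOA (aldolase) at 917 ± 95.4 and LDHA (lactate dehydrogenase) at 436 ± 61.8. Chaperones took 1.64% ± 0.31, highest in B1, and their leading gene was HSPA8, the constitutive HSP70. Nuclear genes of oxidative phosphorylation took 1.25% ± 0.11, with ATP5F1B, the catalytic beta subunit of ATP synthase, at 1481 TPM. Genes with EEF symbols, for translation elongation factors and proteins named after them, took 1.04% ± 0.06. This lay within the spread of the 55 genes with EIF symbols, for initiation factors and proteins named after them, with 1.03% ± 0.05. EEF1A1, which brings aminoacyl-tRNA to the ribosome, had 1854 ± 340 TPM. The cytoskeletal genes ACTB and ACTG1, both cytoplasmic actins, had 1596 ± 111 and 1831 ± 97.6 TPM. Of the 15 mRNAs listed as stable housekeeping genes all were detected, at a median of 1366 TPM, but they ranged down to 46.7 ± 8.78 TPM for HPRT1, a purine salvage enzyme, and 25.6 ± 3.07 for TBP, the TATA-binding protein.

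The mitochondrial genome, which encodes subunits of the respiratory chain, took 2.81% ± 0.12 of gene counts. On its heavy-strand transcript, MT-CO3 had 11429, 9228 and 8616 TPM in B1, B2 and B3, and MT-CO1 and MT-CO2, the other cytochrome c oxidase subunits, 8131 ± 578 and 9563 ± 391 (SD, n = 3). MT-ND5 was lowest of the longer heavy-strand mRNAs, with 1527 ± 62.8 TPM. MT-ND6, the sole mRNA read from the opposite strand, had 450, 318 and 238 TPM, below MT-ND5 in every library. The ribosomal RNAs MT-RNR2 and MT-RNR1 had 8499 ± 1556 and 6203 ± 810 TPM after a library preparation that depleted ribosomal RNA. Mitochondrial tRNAs, which are shorter than the fragments usually kept, reached 10 counts in every library for 10 of 22 genes.

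The most counted gene of all was RN7SL2, on chromosome 14, which encodes 7SL RNA, the scaffold of the signal recognition particle that guides secreted proteins to the endoplasmic reticulum. It had 430281, 574442 and 1212677 counts in B1, B2 and B3, or 14004 ± 6160 CPM (SD, n = 3), with B3 well above the other libraries. RN7SL3, another 7SL gene, followed the same order with 12438, 15596 and 31244 counts, whereas RN7SL1, the other main 7SL gene, was listed at 0 in all 3. The 7SL genes are known to be near copies. How the counts were divided between such copies is uncertain. RN7SL1 was not alone in being listed at 0. Of 20 structural RNA genes looked up, 7 were listed at 0 in every library, including RN7SK, whose 7SK RNA holds the elongation factor P-TEFb inactive, RMRP and RPPH1, the RNAs of the ribonucleases MRP and P, and RNU12, the U12 RNA of the minor spliceosome. In the later annotation used here for names, 5 of these 7 overlapped an exon of another gene on the same strand, compared with 4 of the 13 with counts. RN7SL1 and RMRP had no such overlap, and RN7SL2 had one. Why these genes were listed at 0 was not tested, and a listed 0 is not read here as no labelling.

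Among snoRNAs, SNORD3A, the U3 RNA that takes part in the cleavage of the ribosomal RNA precursor, had 384018, 484555 and 304036 counts in B1, B2 and B3, or 7827 ± 2438 CPM (SD, n = 3). It was lowest in B3, unlike RN7SL2. The next snoRNA genes, SNORD3B-2 and SNORD3B-1, are further U3 copies with 179 ± 44.8 and 86.6 ± 19.7 CPM. SNORA73B had 2381, 2224 and 5822 counts and was highest in B3. Among small nuclear RNAs, RNU4-2, a U4 gene of the major spliceosome, had 118 ± 52.0 CPM, and RNVU1-31, a variant U1 gene, 128 ± 44.1. RNU4ATAC, the U4atac RNA of the minor spliceosome, had 451, 513 and 708 counts, or 10.8 CPM. SCARNA7 led the scaRNAs, which guide modification of spliceosomal RNAs, at 40.7 ± 20.9 CPM. The vault RNA gene VTRNA1-3 had 338, 1362 and 628 counts, highest in B2, and so was RNY1, a Y RNA gene, with 34, 167 and 64.

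Of 1877 microRNA (miRNA) genes 149 were detected, and together they took 0.0433% ± 0.015 of gene counts. These reads fall on the hairpin gene and may come from its precursor or from a longer transcript across it. The mature miRNA is too short for the library. The leading gene, ENSG00000277437, had 2476, 7303 and 10806 counts on chromosome 21 and lies beside MIR3648-1 with 631, 397 and 844. Which transcript gave the reads of these neighbours was not tested. MIR25 had 429, 542 and 935 counts and lies inside an intron of a protein-coding gene on the same strand, so reads of that intron are counted for it too. MIRLET7I, a gene of the let-7 family, had 440, 464 and 859 counts. The mature sequences of the 2 genes of these 5 that matched RefSeq are shown for reference, with the seed, bases 2 to 8, in capitals.
hsa-miR-25-3p, chr7:100093571-100093592, minus strand: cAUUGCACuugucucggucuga
hsa-miR-25-5p, chr7:100093610-100093630, minus strand: aGGCGGAGacuugggcaauug
hsa-let-7i-5p, chr12:62603691-62603712, plus strand: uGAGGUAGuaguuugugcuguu
hsa-let-7i-3p, chr12:62603747-62603768, plus strand: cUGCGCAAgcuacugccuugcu

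No 2 of these 4 seeds are the same. Among lncRNAs, ENSG00000276216, which has no symbol, had the highest mean, 714 ± 242 TPM (SD, n = 3), from 3317, 3509 and 7813 counts in B1, B2 and B3. MALAT1, a nuclear-retained lncRNA of nuclear speckles, had 153021, 108469 and 138648 counts in B1, B2 and B3, and 689 ± 187 TPM, and the ranges of these leading genes overlapped. Next came the snoRNA host genes SNHG19 at 544 ± 70.1 TPM and GAS5 at 383 ± 70.9, followed by ENSG00000279973 and ENSG00000264334, also without a symbol, at 332 ± 17.8 and 185 ± 20.0. SNHG6, SNHG32, SNHG7 and SNHG1, whose introns also carry snoRNAs, lay between 156 and 182 TPM. NEAT1, the scaffold of paraspeckles, had 66.0 ± 12.8 TPM over its long transcript, with 19120, 28693 and 39453 counts, highest in B3. NORAD, which binds Pumilio proteins, had 99.2 ± 11.8 TPM, and TUG1, a lncRNA of broad expression, had 3576, 2688 and 4026 counts. SAMMSON, a lncRNA of the melanocyte lineage, was low but present at 0.95 ± 0.099 TPM, and MEG3, an imprinted lncRNA, had no count in any library.

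Replication-dependent histone genes, made in S phase without a poly(A) tail, were detected for 56 of 65 members, compared with 68.3% of all protein-coding genes. H4C2 had 281, 465 and 544 CPM, H1-4, a linker histone, 245, 362 and 465, and H3C13, an H3 gene, 155, 326 and 406 in B1, B2 and B3. All 3 genes were lowest in B1 and highest in B3. Several other detected histone genes broke this order, among them H4C14 with 39.0, 102 and 32.1 CPM and H4C9 with 50.8, 121 and 110.

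Of the melanocyte genes, the pigment enzymes had few or no counts, whereas most of the regulators were detected. TYR, the rate-limiting enzyme of melanin synthesis, had 0, 0 and 1 count in B1, B2 and B3, and MLANA and SLC24A5, a melanosome antigen and a melanosomal exchanger, had no count at all. DCT, which encodes dopachrome tautomerase, had 3, 8 and 1 counts, TRPM1, an ion channel, 0, 8 and 1, and TYRP1, which stabilises tyrosinase, 13, 20 and 0. PMEL, the fibril protein of the melanosome, had 43, 26 and 61 counts or 0.62 ± 0.19 TPM. In all, 8 of the 16 pigment genes were detected and 3 were off, at a list median of 0.58 TPM compared with 3.99 TPM over all protein-coding genes, of which 68.3% were detected and 19.3% off. The count off is thus close to the share over all genes. Leaving out B2 brought the number off to 5, since DCT and TRPM1 owe their highest counts to that library. The detected members included RAB38, a GTPase of melanosome biogenesis, at 29.4 ± 7.51 TPM, GPNMB, a melanosomal glycoprotein, at 11.2 ± 2.29, MYO5A, the motor that carries melanosomes, at 3.59 ± 1.00, and MC1R, the melanocortin receptor, at 4.82 ± 0.66.

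**Figure D3:**
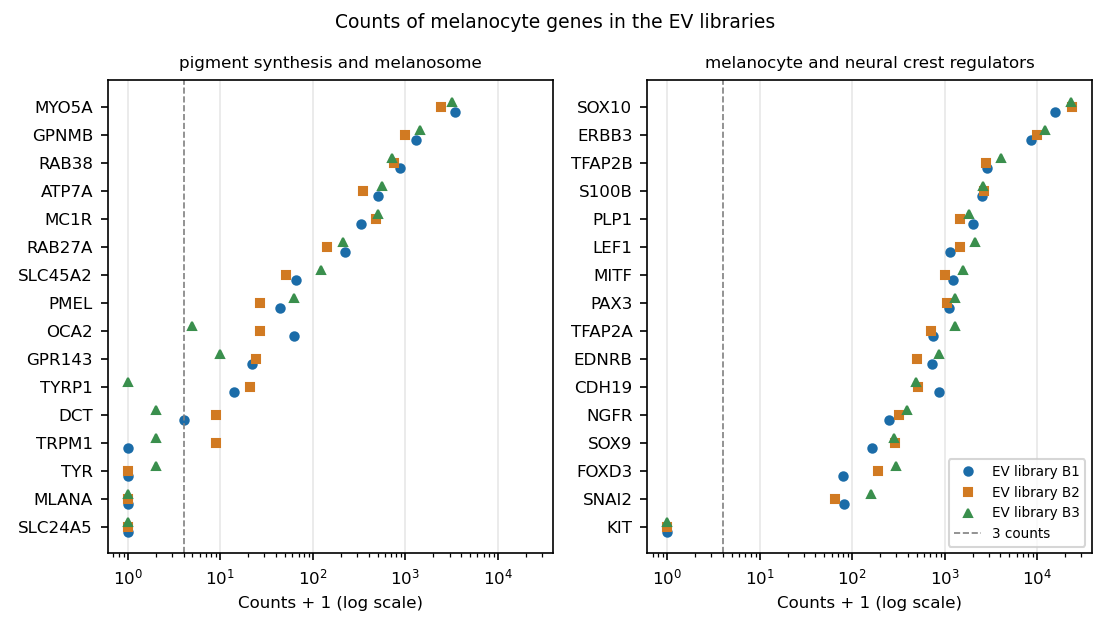
Counts plus 1 (log scale) of 16 pigment genes and 16 melanocyte and neural crest regulators in EV libraries B1, B2 and B3, with a dashed line at 3 counts. TYR, MLANA, SLC24A5 and KIT lie at or left of the line in every library, and the other 15 regulators lie between 64 and 23575 counts.

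The regulators above these enzymes were labelled. SOX10 had 15479, 23575 and 23285 counts and 227 ± 38.4 TPM (SD, n = 3), the highest of the list. ERBB3, a receptor of the neural crest lineage, had 45.7 ± 1.36 TPM, MITF 10.2, 7.49 and 9.37 TPM, and PAX3, which acts with SOX10 on MITF, 7.67 ± 0.77. Of the 16 regulators 15 were detected, compared with 68.3% of all protein-coding genes. The exception was KIT, the stem cell factor receptor of melanoblasts, with no count in any library. That allows up to 0.0636 CPM in a library. SNAI2 and SOX9 were the lowest of those detected, at 1.57 ± 0.52 and 3.28 ± 0.75 TPM. S100B, a calcium-binding marker of the lineage, had 76.5 ± 12.1 TPM.

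MITF is known to bind the hexamer CATGTG, best with a T before it, and CACGTG. The promoters of 13 of the 16 pigment genes were in the RefSeq table (GRCh38.p14), which gives 250 bases before and 50 after each annotated start. Those of the 3 melanin enzymes, TYR, TYRP1 and DCT (its second annotated start), are shown with CATGTG on either strand in capitals.
TYR, chr11:89177625-89177924, plus strand: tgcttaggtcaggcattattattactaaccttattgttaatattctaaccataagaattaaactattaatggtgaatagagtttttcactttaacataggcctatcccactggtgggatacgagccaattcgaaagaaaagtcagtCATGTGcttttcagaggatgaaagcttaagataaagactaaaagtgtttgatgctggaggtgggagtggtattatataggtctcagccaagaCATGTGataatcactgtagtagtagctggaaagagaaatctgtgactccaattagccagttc
TYRP1, chr9:12693135-12693434, plus strand: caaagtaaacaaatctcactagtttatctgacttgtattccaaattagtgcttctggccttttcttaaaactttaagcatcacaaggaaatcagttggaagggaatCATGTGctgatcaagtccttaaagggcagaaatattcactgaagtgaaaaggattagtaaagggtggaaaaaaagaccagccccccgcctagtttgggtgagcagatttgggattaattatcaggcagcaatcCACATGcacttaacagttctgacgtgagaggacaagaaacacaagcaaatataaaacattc
DCT, chr13:94479633-94479932, minus strand: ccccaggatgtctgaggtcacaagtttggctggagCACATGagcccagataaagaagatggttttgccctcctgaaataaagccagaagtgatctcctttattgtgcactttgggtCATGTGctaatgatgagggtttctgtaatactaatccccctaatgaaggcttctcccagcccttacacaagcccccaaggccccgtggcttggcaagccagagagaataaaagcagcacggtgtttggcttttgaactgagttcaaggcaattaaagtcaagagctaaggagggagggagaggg

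Each of these 3 windows held CATGTG at 2 places, beginning in TYR at bases -104 and -12 from the start, in TYRP1 at -144 and -11 and in DCT at -215 and -134. Of the 13 pigment genes, 9 had the hexamer at 1 or more starts, 6 had it with the T before it (TCATGTG, which contains CATGTG), and 1 had CACGTG. Across all genes with an entry 11.1% of 35116 promoters held CATGTG on either strand, 2.92% held TCATGTG and 7.26% held CACGTG. These shares are per promoter, whereas the pigment counts are per gene over all its starts, with 19 promoters for the 13 genes. Of the 9 genes with the hexamer 2 were detected, GPNMB and MC1R, and of the 4 without it 3 were detected. MLANA was without it in this window and had no count. The letters describe the reference and say nothing of binding in these cells.

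Genes of the dedifferentiated melanoma state were all labelled, 20 of 20 detected at a list median of 40.8 TPM. Of all protein-coding genes 68.3% were detected. VIM, the intermediate filament vimentin, had 1586, 1573 and 1441 TPM in B1, B2 and B3, and FOSL1, an AP-1 subunit, 439, 498 and 471. AXL, a receptor tyrosine kinase, had 170 ± 4.22 TPM (SD, n = 3), the matricellular genes THBS1, SPARC and TNC had 451 ± 76.5, 329 ± 37.2 and 158 ± 13.7, and TEAD4, a partner of YAP, 93.9 ± 5.22. EGFR, the epidermal growth factor receptor, and FN1, fibronectin, were among the lowest of the list, at 2.90 ± 0.48 and 3.74 ± 0.35 TPM. CCN1 and CCN2, targets of YAP, were highest in B3, with 7535, 7420 and 16952 counts for CCN1 and 7908, 7892 and 14711 for CCN2.

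Several cancer-testis antigens, proteins made in germ cells and tumours, were among the more labelled genes. PAGE5 had 827, 736 and 529 TPM and MAGEA4 724, 668 and 530 TPM in B1, B2 and B3, both above LDHA and below ALDOA in each library. MAGEA3, MAGEA6 and MAGEC2 had 239 ± 34.4, 180 ± 17.6 and 166 ± 17.3 TPM (SD, n = 3), and the MAGEA3 and MAGEA6 sequences are close enough that their division is uncertain. PRAME, a melanoma antigen outside the X chromosome, had 151 ± 32.1 TPM. In all 12 of 15 listed antigens were detected, compared with 68.3% of all protein-coding genes. Over the whole MAGE family 16 of 35 genes were detected and 15 were off. GAGE1, a gene with near-identical copies, was listed at 0, SSX1 had 0, 1 and 0 counts and MAGEC1 10, 7 and 0.

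Many markers of other cell types were at or near 0, although each list had 1 or more genes detected. Over all protein-coding genes 19.3% were off. Of 15 leukocyte genes 8 were off, among them CD3E, CD3D, MS4A1 and CD79A with no count, and the list summed to between 164 and 226 counts a library. Of 12 muscle genes 8 were off, including MYOD1 and MYOG, the muscle determination factors, and of 10 erythroid genes 5 were off, including GATA1 and both alpha globin genes. Fetal globin HBG2 was the 1 gene of that list detected, with 48, 37 and 20 counts. KRT5 had 0, 2 and 1 counts, TP63, the master factor of squamous epithelium, 0, 0 and 1, and CDH1, E-cadherin, 8, 2 and 0. Of the 14 keratinocyte genes 7 were detected. KRT10, a keratin of differentiating epidermis, was highest with 2017, 2677 and 2454 counts or 58.7 ± 9.29 TPM (SD, n = 3), and PERP, a desmosome gene, had 24.7 ± 6.46. KRT14, the partner of KRT5, was also detected with 889, 963 and 1338 counts or 24.7 ± 1.31 TPM, and so was FLG, filaggrin, at 4.82 ± 0.87.

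**Figure D4:**
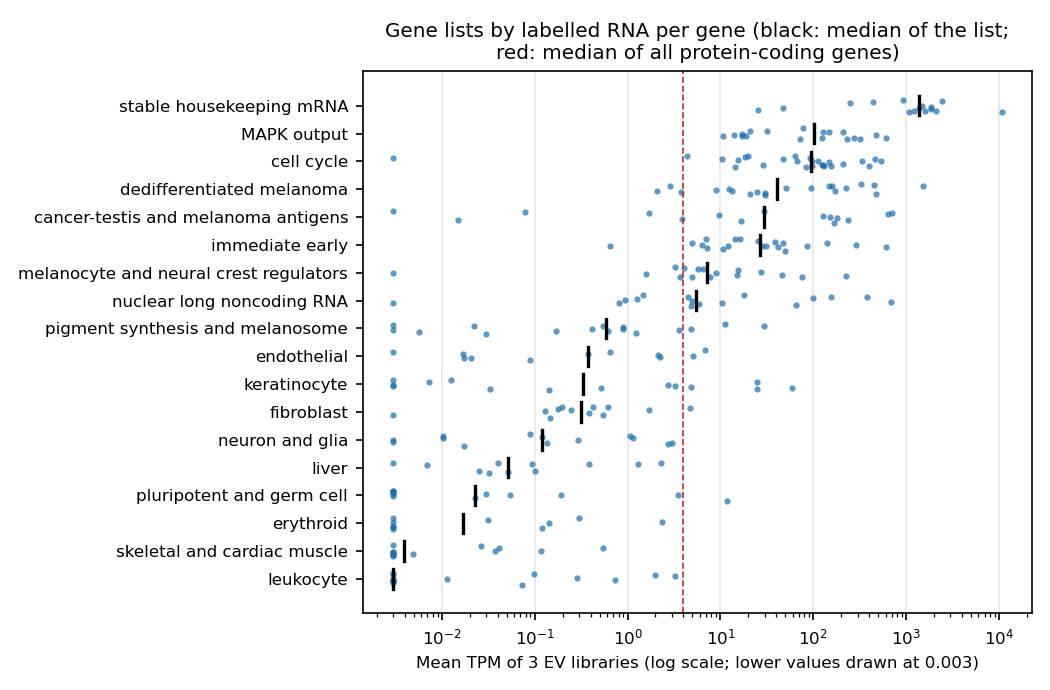
Mean TPM over the 3 EV libraries (log scale, values under 0.003 drawn at 0.003) of each gene in 18 lists, with the list median in black and the median of all protein-coding genes, 3.99 TPM, as a dashed red line. Lists of other tissues have medians from 0.0026 to 0.38 TPM, and housekeeping, MAPK output and cell cycle lists lie between 94.2 and 1366.

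Fibroblast genes were low but mostly above the floor. COL1A1 and COL1A2, the chains of type I collagen, had 0.42 ± 0.058 and 0.39 ± 0.16 TPM, and PDGFRB, a receptor of mural cells, was highest of the list at 4.66 ± 1.20. Endothelial CLDN5 had no count, CDH5 5, 0 and 0 and PECAM1 0, 7 and 2, yet 6 of the 11 endothelial genes were detected. ESAM, an adhesion molecule, was highest of these with 291, 304 and 578 counts or 6.88 ± 1.61 TPM. The VEGF receptors FLT1 and KDR had 1228, 1070 and 1305 counts and 320, 180 and 282, and TIE1, a receptor kinase, had 148, 292 and 388. Among neural genes, OLIG2, an oligodendrocyte factor, had 98, 217 and 200 counts and SYT1, a synaptic vesicle protein, 554, 478 and 544, while STMN2 and NEUROD1 had none. SOX2, shared by stem cells and the neural lineage, was at 11.8 ± 1.11 TPM, while its pluripotency partners were not, with POU5F1 at 5, 2 and 1 counts and NANOG and LIN28A at 0. In the liver list ALB had 0, 0 and 12 counts and only SERPINA1 and CYP2E1 were detected, at 1.30 ± 0.33 and 2.28 ± 0.20 TPM. As background for these counts, 68.3% of all protein-coding genes were detected and 19.3% were off.

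Several gene families were mostly off, compared with 19.3% of all protein-coding genes. Of olfactory receptor genes 362 of 415 (87.2%) were off, with OR51B4 the highest at 18.2 ± 5.22 TPM, and so were 86 of 94 keratin-associated genes of hair, 44 of 46 defensins and 14 of 15 type I interferon genes. The longest unbroken run of protein-coding genes that were off was 36 genes on chromosome 21 (GRCh38, 29536933 to 31038476, from GRIK1 to KRTAP19-8), 33 of them keratin-associated. The next, 26 genes on chromosome 11 between OR8J2 and LRRC55, held 24 olfactory receptors. The longest run of detected genes had 47 members on chromosome 2, from SPTBN1 to DNAAF10. HOX genes, which record position along the body axis, were nearly all labelled. Detected were 11 of 11 HOXA, 9 of 10 HOXB, 9 of 9 HOXC and 7 of 9 HOXD genes. The detected share over all protein-coding genes was 68.3%. HOXB2 was highest at 81.2 ± 10.6 TPM and HOXB1 had no count.

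MHC class II genes, usually active in antigen-presenting cells, were also labelled. HLA-DRA had 15009, 14850 and 16438 counts in B1, B2 and B3 and 662 ± 80.5 TPM (SD, n = 3). Of the class II genes 14 of 15 were detected, and 6 of 7 in the class I group, beside 68.3% of all protein-coding genes. B2M, the shared subunit of class I, had 251 ± 65.6 TPM. The class II group, in which CD74 and CIITA were included, took 0.152% ± 0.014 of gene counts and the class I group 0.0775% ± 0.0061. Per gene the order was the other way, with a median of 11.8 TPM over the 15 class II genes and 74.5 over the 7 of class I.

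Genes downstream of the RAF, MEK and ERK kinases were labelled throughout. Of the MAPK output list 18 of 18 were detected, compared with 68.3% of all protein-coding genes, and the list median was 101 TPM. The feedback phosphatase DUSP6 had 17734, 14262 and 29849 counts, SPRY2, a feedback inhibitor, 14521, 14702 and 30032, and SPRY4 11182, 14176 and 23980 in B1, B2 and B3. B3 was highest for all 3 genes, in CPM as well. CCND1, cyclin D1, had 358, 364 and 374 CPM, a smaller relative range than these, and 208 ± 9.64 TPM (SD, n = 3). EPHA2, an ephrin receptor, had 314, 379 and 371 CPM. All 20 immediate early genes, those that respond to growth factors without new protein synthesis, were detected, from EGR2 with 17, 61 and 65 counts to IER3 at 607 ± 76.6 TPM. FOS had 1261, 1453 and 3107 counts, KLF6 3262, 3246 and 7694, and MYC 1481, 1410 and 2905.

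Cell cycle genes were detected for 25 of 26 members, compared with 68.3% of all protein-coding genes. CDC20, an activator of the anaphase-promoting complex, had 537 ± 62.5 TPM, PCNA, the replication clamp, 458 ± 95.3, CDK4 401 ± 53.0 and CCNB1, cyclin B1, 338 ± 58.5. The member without a count was CDKN2B, which encodes the CDK inhibitor p15, at 0 in all 3 libraries, while its neighbour CDKN2A, which encodes p16 and ARF, had 163, 305 and 539 counts. TOP2A, a topoisomerase of dividing cells, varied most in the list, with 23805, 8768 and 12398 counts.

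Genes with longer spans were mostly detected more often, and those detected had lower levels per length. Of genes spanning at most 2 kb 26.2% were detected, compared with 57.3% at 2 to 10 kb and 80.0% at 100 to 500 kb, with 75.5% above 500 kb. Among detected genes the median level went from 33.1 TPM in the shortest class to 6.62 at 100 to 500 kb and 2.09 above 500 kb. Detection was set by counts and not by level per length, so these values depend on length through that limit. Over all nuclear protein-coding genes, detected or not, the median was 0 TPM up to 2 kb and 6.15 at 10 to 50 kb. It was 4.03 at 100 to 500 kb and 0.898 above 500 kb. Genes of 10 to 50 kb held the largest share of the counts of nuclear protein-coding genes, 43.6% ± 0.25 (SD, n = 3). Protein-coding genes with a single block of exons were detected for 379 of 1057 (35.9%), compared with 70.3% among genes with more. They held 2.87% ± 0.33 of the counts of nuclear protein-coding genes. Across chromosomes, the share of protein-coding genes detected was lowest on chromosome 21, with 125 of 216, and highest on chromosome 5, with 655 of 873.

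The 3 libraries ranked genes alike but differed by far more than sampling noise. Across 19438 detected genes, log2(CPM+1) gave Pearson r of 0.984, 0.982 and 0.983 and Spearman rho of 0.979, 0.975 and 0.976 for B1 and B2, B1 and B3, and B2 and B3, as a description over genes, which are not independent replicates. The mean chi-square per gene was 87.9, 88.0 and 66.5 for these pairs, where counting noise alone gives a value near 1, so no pair agreed within counting noise and each library was counted on its own. This does not show that they came from separate cultures. The common biological coefficient of variation, the spread between libraries beyond counting noise in edgeR, was 0.278 over 19255 genes. For protein-coding genes alone it was 0.216. Of protein-coding genes with a mean of at least 10 CPM, 271 of 9459 (2.86%) differed by more than a factor of 2 between their highest and lowest library, and the median factor was 1.33.

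Most of the genes that varied most between libraries were poor in GC and highest in B1. CENPE, a kinesin of the kinetochore, had 73.1, 19.3 and 29.6 CPM in B1, B2 and B3, SSB, the La protein that binds the ends of polymerase III transcripts, 92.5, 28.8 and 27.1, and KIF20B, a kinesin of cytokinesis, 61.9, 18.9 and 30.5. PPIG, ESF1 and SREK1IP1 had the same order of B1 over the others, and the transcripts of all 6 genes had a GC content between 34.3% and 36.6%. H4C11, H4C14 and MIF, a cytokine, were highest in B2 instead, with 60.9% to 65.9% GC, and MIF had 22.1, 45.5 and 14.5 CPM. XAGE1B, a cancer-testis gene with near copies, varied most of all, with 10.2, 16.6 and 3.76 CPM at 49.1% GC. Of the 271 genes that differed by more than a factor of 2, 188 were highest in B1, with a median GC of 37.3%, 18 in B2, with 63.0%, and 65 in B3, with 54.9%, beside a median of 48.5% over all genes in this class.

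**Figure D5:**
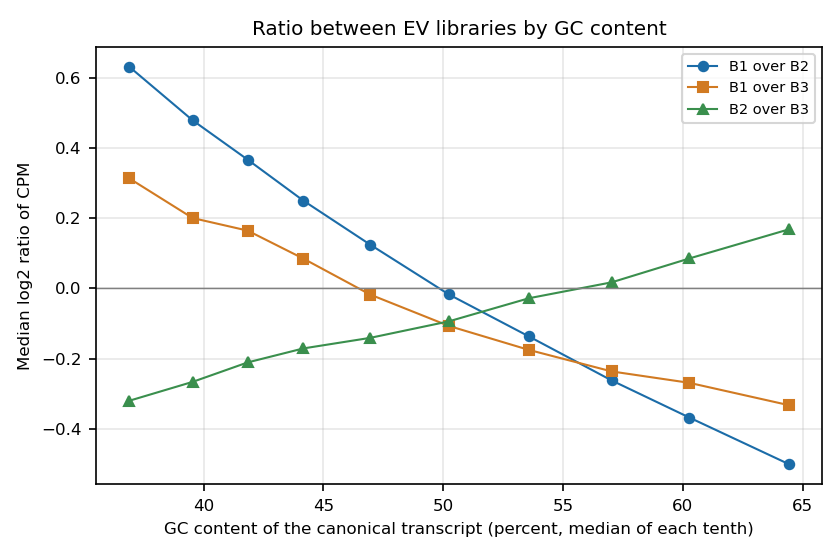
Median log2 ratio of CPM between 2 EV libraries (vertical axis) for 10 equal bins of the detected protein-coding genes ordered by the GC content of the canonical transcript (horizontal axis, percent). B1 over B2 runs from 0.63 in the lowest bin to -0.50 in the highest, and B2 over B3 runs the other way, from -0.32 to 0.17.

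The same trend ran through all 13453 detected protein-coding genes outside the mitochondrial genome with a GC value. The median log2 ratio of B1 over B2 went from 0.63 in the bin with the lowest GC content to -0.50 in the highest, and that of B1 over B3 from 0.31 to -0.33. Spearman rho of GC content with the ratio was -0.73 for B1 over B2, -0.48 for B1 over B3 and 0.38 for B2 over B3. As a description of the same trend, shares of the counts of nuclear protein-coding genes were taken by chromosome. Chromosome 19, which is rich in GC, held 7.90%, 9.87% and 8.82% of them in B1, B2 and B3. Chromosome 4, which is poor in GC, held 2.43%, 2.05% and 2.21%. The part of base composition in the differences between single genes was not tested.

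B3 stood apart in other ways. Of the 20 immediate early genes 17 had their highest CPM in B3, compared with 37.2% of all 13453 detected protein-coding genes, and their median log2 ratio of B3 over the mean of B1 and B2 was 0.47, compared with 0.05. MAPK output genes had a median of 0.25 with 11 of 18 highest in B3, the 15 detected genes of the lncRNA list 0.26, and the structural RNAs 0.52. IER3 belongs to both the immediate early and the MAPK list. Short lists spread wider, with -0.35 over 8 fibroblast genes, 0.61 over 6 endothelial genes and a lower value still over 3 leukocyte genes. Cancer-testis genes had a median of -0.27, and 10 of 12 were lowest in B3, compared with 2574 of the 13453 genes. B3 was also the library with the most reads on no annotated exon, and whether that is linked to these groups was not tested. Noncoding genes that lie inside an intron of a protein-coding gene on the same strand took 0.200%, 0.203% and 0.267% of gene counts in B1, B2 and B3, highest in B3, whereas those inside an intron on the opposite strand took 0.230%, 0.292% and 0.195%, lowest in B3.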

How the data were processed

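Nascent RNA was labelled with 4sU, biotinylated, pulled down and, after depletion of ribosomal RNA, made into strand-specific libraries read as pairs. Per the submitters' processing notes the authors used FastQC 0.11.3, STAR 2.5.1b and HTSeq 0.6.1 on GRCh38, with Ensembl release 91, and deposited raw read counts per gene. The second column of each file, for the reverse strand, was used as deposited, and totals of reads on no gene were kept out of library sizes. Depth was 47158709 to 57952035 gene counts, which leaves counting error small beside the spread between libraries except for genes near the floor.

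Names, classes and exon lengths came from GENCODE 44, which matched 57532 of 58243 identifiers. The 711 others held 0.156% to 0.244% of gene counts. CPM was computed over gene counts and TPM over union exon length. A gene with at least 10 counts in each library was called detected, and one with at most 3 in each, off. Agreement was described with Pearson and Spearman correlation of log2(CPM+1), with a pseudocount of 1, a chi-square of counts, and the dispersion of edgeR 4.0.16 in R 4.3.3 on TMM scaled counts, checked on simulated data. DESeq2 1.42.0, pandas 2.3.3, scipy 1.17.1 and matplotlib 3.10.9 were also used. No groups were compared and no p-value was computed.

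Genes were named by fixed rules. Named were the 20 nuclear protein-coding genes and 10 lncRNAs of highest mean TPM, and the 5 leading genes of each small RNA class. The 10 genes of at least 10 CPM with the largest ratio between libraries, and listed genes, were named too. Genes of groups, families and runs named beyond these were chosen after their values were seen. The libraries and the gene lists were chosen with earlier results of these data known. Some items that these rules cover are not reported here.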

Additional observations from a re-analysis of the deposited data

How the results depend on the processing

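No paired analysis was possible because the EV libraries alone were analysed and no groups were compared. Of 65 values recomputed under other settings, 45 stayed within the limit set for them and 20 moved beyond it. For shares of gene counts the limit was 1 SD over the 3 libraries. Leaving out 1 library cannot shift a mean of 3 that far, so those values were bound to stay within it. Over all uniquely aligned reads in place of gene counts, the shares were 56.1% for nuclear protein-coding genes, 1.32% for lncRNAs, 0.548% for snoRNAs and scaRNAs, 0.445% for histone genes and 1.74% for the mitochondrial genome, a lower value for each since the denominator is larger. Outside the mitochondrial genome the protein-coding share was 93.0%. The lowest Spearman rho between libraries was 0.975, 0.930 over every gene with at least 1 count, 0.978 over protein-coding genes, and 0.973 to 0.978 when any 1 library was left out. The biological coefficient of variation, 0.278, was 0.550 over every gene with at least 1 count, 0.216 over protein-coding genes, 0.226 as the median gene dispersion of DESeq2, 0.251 with an offset for GC content, chosen after seeing the data, and 0.255 to 0.297 when any 1 library was left out. Pigment genes that were off numbered 5 at a limit of 10 counts, 5 by a mean under 0.1 TPM, and 3 to 5 when any 1 library was left out, with 5 without B2. The 100 most counted genes held 19.5% without mitochondrial and structural RNA genes. Of the 20 nuclear protein-coding genes with the highest TPM, 7 were among the highest by CPM and 12 by canonical transcript length. The latter was chosen after seeing the data.

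The labels do not state separate cultures for the 3 libraries, which limits what their spread stands for. Depth limits the genes near 3 counts, where a single library can decide whether a gene is off.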
